A study of Drosophila melanogaster with 12 samples.

Results

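Gene expression was compared between clamp null and control female larvae of the last instar (L3) of Drosophila melanogaster. The comparison rests on 6 RNA-seq libraries of the 12 in the series, those titled as clamp null females 4, 5 and 6 and as control females 1, 2 and 3. Clamp null larvae carry the clamp2 null allele in a yw background, and control larvae are yw, so both genotypes share the yw background. RNA came from 3 whole larvae each by the labels, and the labels give no time within L3. The values are TPM (transcripts scaled to 1000000 a library), estimated by the authors for each transcript and summed here over the transcripts of a gene. Of the 13771 genes in the files, the 9562 with a mean of at least 1 TPM over the 6 female libraries were tested, each as clamp null against control.

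CLAMP is a zinc finger protein that binds GA-rich DNA and is known for bringing the dosage compensation complex to the male X chromosome and for opening chromatin at many other genes. Larvae without zygotic CLAMP reach L3 and do not pupate. L3 is the last feeding stage of the fly. Near its end, pulses of the steroid ecdysone switch on early genes such as br and Eip74EF, the salivary glands fill with glue, the fat body turns to storage, and the epidermis, gut and muscles are prepared for metamorphosis. A whole larva mixes all of these tissues. In such bulk samples, fewer cells of a type and less RNA per cell cannot be told apart.

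Clamp itself (FBgn0032979, chromosome 2L from 22165720 to 22169143 of assembly BDGP6) had 19.4, 16.2 and 20.0 TPM in clamp null females 4, 5 and 6, against 39.4, 45.1 and 36.3 TPM in control females 1, 2 and 3. The groups did not overlap, and Clamp fell (log2 fold change -1.08, standard error 0.24, adjusted p = 0.0118 from limma). By the transcript estimates the fall lay in Clamp-RA, though the change in its share of the gene's TPM was not called (adjusted p = 0.262 from limma). Clamp-RA had 9.13, 0 and 6.35 TPM in clamp null females, against 29.1, 32.2 and 27.9 TPM in control females, and Clamp-RB had 10.3, 16.2 and 13.7 TPM in clamp null females, against 10.3, 12.9 and 8.37 TPM in control females. Transcripts of the null allele were thus still measured. Without control female 2, the adjusted p of Clamp was 0.0628.

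The sex of each library rests on its title. A sex field of the labels calls all controls female and all clamp null samples male, and was not used. Transcripts of doublesex (dsx), the gene whose splicing sets somatic sex, did not settle it. In clamp null females, dsx transcripts with the male coding length summed to 1.51, 1.75 and 1.98 TPM and those with the female coding length to 0, 0.193 and 0 TPM. In control females, the male form summed to 5.38, 3.28 and 4.15 TPM and the female form to 2.12, 0.620 and 0.319 TPM, so the labelled sex was not seen in dsx at these low levels. Testis genes did separate the controls: 32 such genes summed to 21.4, 53.1 and 18.1 TPM in control females and to between 2620 and 3980 TPM in control males. They summed to 6.77, 13.1 and 14.5 TPM in clamp null females and to 13.2, 20.4 and 575 TPM in clamp null males 4, 5 and 6, so that all clamp null libraries but male 6 could not be told apart by sex from these genes.

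The libraries of each genotype were alike. The correlation of log2(TPM + 1) across genes was 0.940 to 0.943 between clamp null females, 0.909 to 0.948 between control females and 0.728 to 0.838 between the genotypes. Between 8665 and 9532 genes reached 1 TPM in a female library. Clamp null female 6 was the clamp null library closest to the controls, with correlations of 0.802 to 0.838 to them. The 9 glue genes of the salivary gland (Sgs) summed to 25.6, 24.2 and 3626 TPM in clamp null females 4, 5 and 6, against 155188, 124922 and 80673 TPM in control females 1, 2 and 3. TPM of a library sum to 1000000, so each value is relative to the others of its library. The depth of the libraries is unknown.

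Of the 9562 genes, 2751 (28.8%) differed between clamp null and control females at an adjusted p under 0.05 from limma on log2(TPM + 1). Of these, 1144 (12%) rose and 1607 (16.8%) fell in clamp null females. The split by direction moved with the scaling. Over all genes the log2 fold change had a median of -0.26 with TPM as deposited and of -0.03 when each library was divided by its median-of-ratios factor. With that factor, 1473 genes (15.4%) rose and 1146 (12%) fell. In 4453 genes (46.6%) the TPM of the groups did not overlap. With 1 library left out, the count was lowest without control female 2, at 1291 genes (13.5%), 690 (7.22%) higher and 601 (6.29%) lower. No called gene turned its direction there. Control female 2 correlated at 0.948 and 0.946 with control females 1 and 3, which correlated at 0.909 with each other. Why the count dropped most without control female 2 was not tested. Median differences of gene lists are given below relative to the median of all genes, and a list is described by its counts beside these shares.

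**Figure D1:**
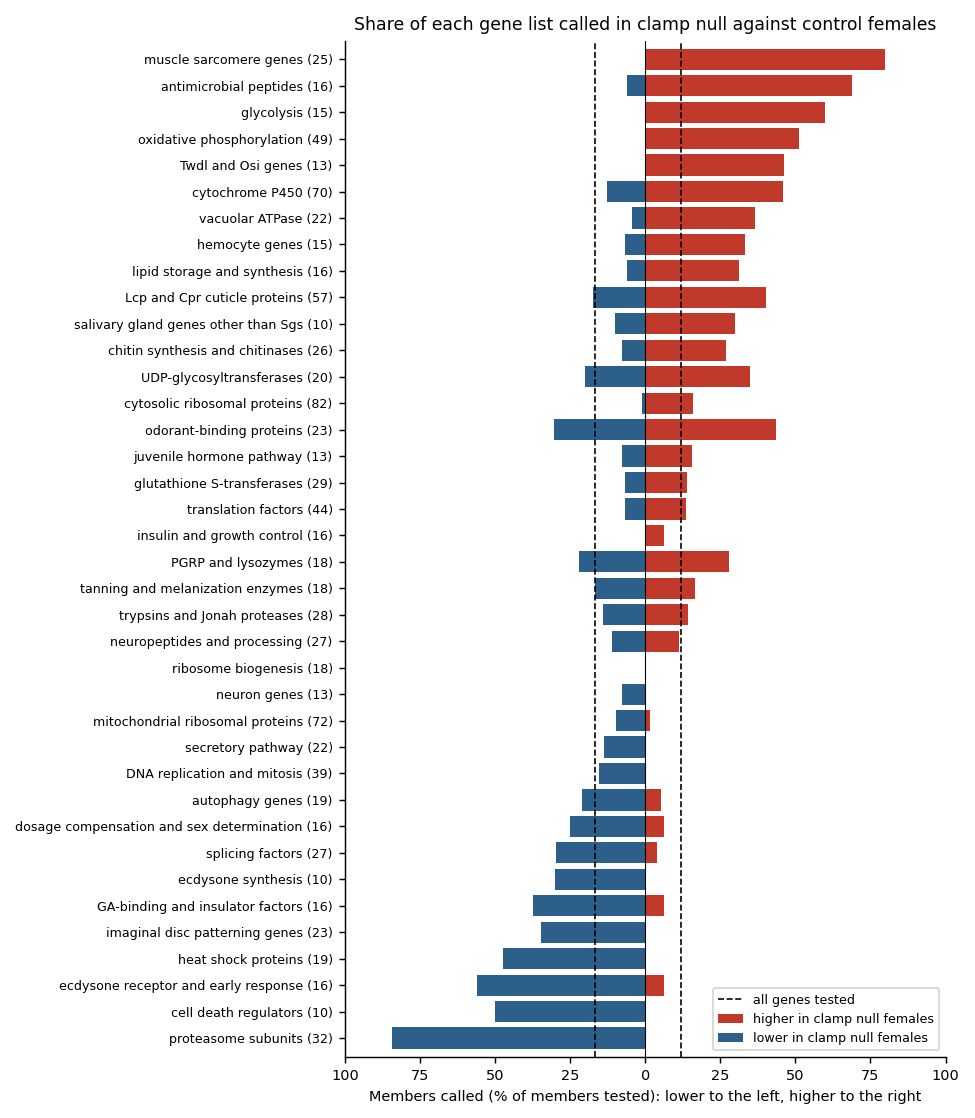
Share of each gene list, in percent of its members tested, that rose (red, to the right) or fell (blue, to the left) in clamp null females, for lists with at least 10 members tested (number in brackets); dashed lines give the shares over all 9562 genes, 12% higher and 16.8% lower. Muscle genes lie at one end, with 20 of 25 members higher, and proteasome subunits at the other, with 27 of 32 lower.

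**Figure D2:**
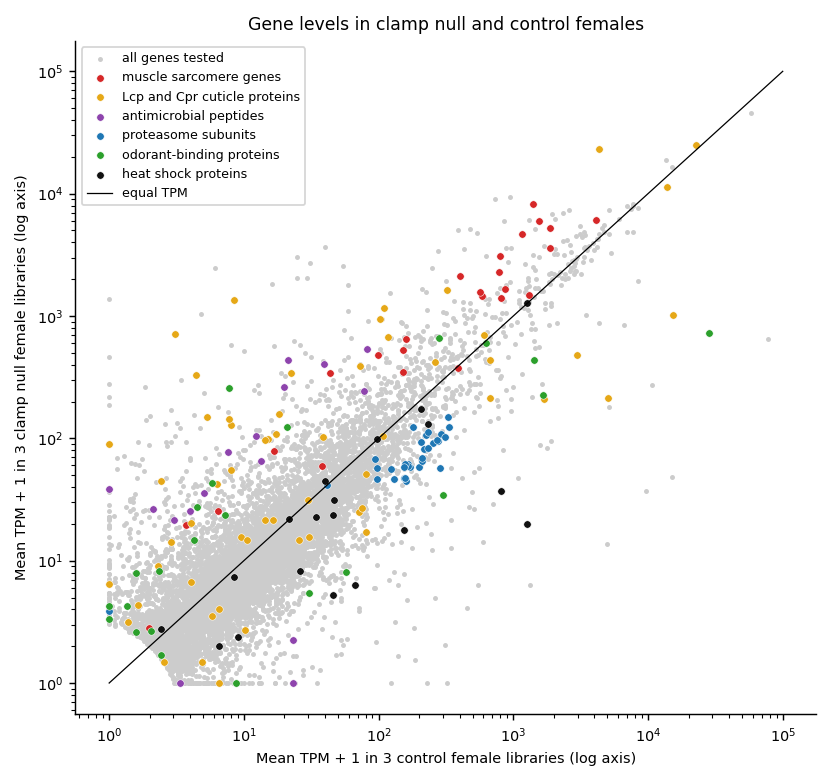
Mean TPM + 1 of each gene tested in 3 clamp null female libraries (vertical log axis) and 3 control female libraries (horizontal log axis), with members of 6 gene lists in colour and the line of equal TPM. Most muscle genes lie above the line and most proteasome subunits below it, whereas cuticle and odorant-binding protein genes lie on both sides.

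Genes of the sarcomere, the contractile unit of muscle, were higher in clamp null females. Of 25 sarcomere genes tested, 20 rose and none fell, against 12% of all genes that rose, and the median log2 fold change was 1.88 above that of all genes. SERCA, the calcium pump that ends a contraction, had 530.5, 221 and 281 TPM in clamp null females, against 41.5, 33.3 and 52.1 TPM in control females (log2 fold change 2.92, standard error 0.34, adjusted p = 0.00056 from limma). Act57B, a larval muscle actin, had 11496, 6944 and 6291 TPM in clamp null females, against 1139, 1143 and 1932 TPM in control females (log2 fold change 2.55, standard error 0.31, adjusted p = 0.000589). Mhc, the muscle myosin heavy chain, had 3455, 1363 and 1527 TPM in clamp null females, against 212, 269 and 719 TPM in control females. In each of these genes every clamp null library lay above every control library. Parts of the thin filament, the thick filament and the elastic filaments rose alike: log2 fold changes were 2.04 for the tropomyosin Tm2, 1.97 for up (troponin T), 1.99 for the light chain Mlc1, 1.44 for Prm (paramyosin), 1.98 for sls and 2.47 for bt, both giant elastic proteins, and 2.27 for Zasp52, a Z-disc protein. The members not called were Mlp60A, Mlp84B, Zasp66, fln and Strn-Mlck, of which fln serves the flight muscle and was below 4 TPM in every female library. Over all 26 genes of the list, muscle TPM summed to 51769 ± 5372 (SD, n = 3) in clamp null females and 19090.0 ± 5256 in control females, 2.71 times as much, with no overlap. Without control female 2, 13 of the 25 rose and none fell, and the calls of TpnC47D, Prm and Tm1 among others were lost (adjusted p = 0.0691, 0.0512 and 0.136).

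Genes of energy metabolism rose with them. Of 49 nuclear genes of oxidative phosphorylation, 25 rose and none fell, and 46 had a positive log2 fold change, with a median 1.17 above all genes. All 5 complexes of the respiratory chain had risen members. ND-SGDH (complex I) had 212, 301 and 219.9 TPM in clamp null females, against 57.5, 75.1 and 82.7 TPM in control females. SdhB (complex II) had 468, 351 and 328 TPM in clamp null females, against 114, 129.5 and 169 TPM in control females. UQCR-C1 (complex III) had 849.7, 659 and 508 TPM in clamp null females, against 112, 177 and 266 TPM in control females. The log2 fold changes of these genes were 1.75, 1.47 and 1.91, and those of COX7A (complex IV) and ATPsynbeta (ATP synthase) were 1.60 and 1.63, with adjusted p-values between 0.000884 and 0.00394 from limma. Glycolysis followed the same course, with 9 of 15 genes higher and none lower. Ldh, which turns pyruvate into lactate in growing larvae, had 1009, 1021 and 658 TPM in clamp null females, against 109, 98.1 and 231 TPM in control females (log2 fold change 2.69, standard error 0.35, adjusted p = 0.00092). Pfk, PyK, Ald1, Pgi, Tpi, Eno, Pgm1 and Gpdh1 rose by 1.02 to 1.62 on the log2 scale. These counts dropped without control female 2, when 9 genes of oxidative phosphorylation and 1 of glycolysis, Ldh, passed the test, while no gene of either list fell. Control female 3 was the control closest to the clamp null libraries in both lists.

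**Figure D3:**
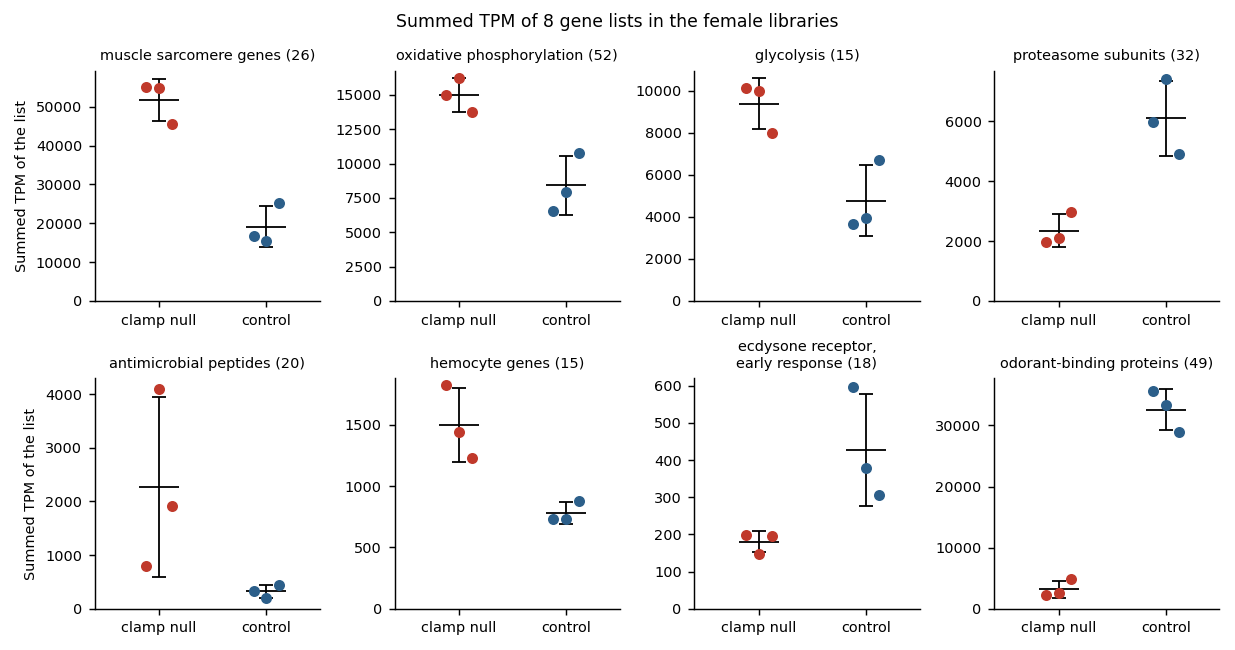
Summed TPM of 8 gene lists in each female library (vertical axis from 0, number of genes in brackets), with clamp null females left in red, control females right in blue, and the mean and SD of 3 libraries as bars. The 8 lists were chosen with results known, and other lists, such as Lcp and Cpr genes and cytosolic ribosomal proteins, have sums that overlap. The sums of all 8 lists do not overlap between the genotypes. They are higher in clamp null females for muscle, oxidative phosphorylation, glycolysis, antimicrobial peptides and hemocyte genes, and lower for proteasome subunits, ecdysone receptor and early genes, and odorant-binding proteins.

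Lipid synthesis and proton pumps changed to a lesser degree. Of 16 genes of lipid storage and synthesis, 5 rose and 1 fell. ACC, the first enzyme of fatty acid synthesis, had 57.1, 23.9 and 28.1 TPM in clamp null females, against 5.85, 6.26 and 12.6 TPM in control females (log2 fold change 1.99, adjusted p = 0.00718 from limma). FASN1 (fatty acid synthase), Acsl and the desaturase Desat1 rose by 1.65, 1.45 and 1.26. The lipid droplet protein Lsd-2 rose by 0.89, and Lsd-1, which guards the droplet surface, fell by 0.79. When control female 2 was left out, ACC alone kept its call. Of 22 genes of the vacuolar ATPase, 8 rose and 1 fell, against 10 and 0 with the median-of-ratios factor, and 1 rose without control female 2. The strongest was Vha36-3, at 51.7, 35.4 and 42.6 TPM in clamp null females and 5.14, 7.82 and 13.6 TPM in control females.

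The proteasome, which breaks down tagged proteins, was lower as a whole. Of its 32 subunit genes tested, 27 fell and none rose, against 16.8% of all genes that fell, with a median log2 fold change 1.16 below that of all genes. Falls were seen in every part of the particle. Among the alpha subunits of the core ring, Prosalpha4 had 40.6, 59.1 and 67.4 TPM in clamp null females, against 260.5, 363 and 233 TPM in control females (log2 fold change -2.34, standard error 0.28, adjusted p = 0.000586 from limma). Among the catalytic beta subunits, Prosbeta5 had 41.0, 57.1 and 78.5 TPM in clamp null females, against 151, 233 and 113 TPM in control females (log2 fold change -1.46). In the regulatory cap, the scaffold Rpn3 had 45.3, 41.5 and 52.1 TPM in clamp null females, against 143, 189 and 129 TPM in control females (log2 fold change -1.70). The deubiquitinase Rpn11 and the ATPase Rpt2 fell by 1.48 and 1.63. Thus core, lid and ATPase ring each lay below the controls. The genes not called were Rpn5, Rpn1, Prosbeta3, Prosbeta6 and Prosalpha1. Prosalpha1 was listed at 0 in 5 of the 6 libraries, while its near-identical copy Prosalpha1R had 126, 179 and 226 TPM in clamp null females, against 416, 529.9 and 352 TPM in control females, so their reads may have been divided unevenly. Prosalpha1R was not called without control female 2 (adjusted p = 0.0561). The 32 genes summed to 1977, 2092 and 2970 TPM in clamp null females, against 5987, 7411 and 4903 TPM in control females, 2.60 times as much in control. Without control female 2, 18 subunits fell and none rose, and Prosbeta5 was not called (adjusted p = 0.0665).

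Heat shock proteins and the machinery of cell death fell too. Of 19 heat shock genes, 9 fell and none rose. The largest falls were in a cluster of small heat shock genes on chromosome 3L between 9371511 and 9385694, genes that respond to ecdysone as well as to heat. Hsp23 had 5.58, 7.26 and 43.5 TPM in clamp null females, against 1091, 1365 and 1309.9 TPM in control females (log2 fold change -6.54, standard error 0.61, adjusted p = 0.000185 from limma). Hsp27 had 13, 8.90 and 86.8 TPM in clamp null females, against 1068, 779 and 602 TPM in control females (log2 fold change -5.11). Hsp26, Hsp67Ba and Hsp67Bc fell by 3.85, 3.68 and 3.15 on the log2 scale, whereas Hsp22 in the same cluster had 6.45, 6.58 and 6.09 TPM in clamp null females and 11.5, 5.39 and 5.62 TPM in control females, which did not differ beyond the spread. Among genes better known for heat stress, Hsp70Ab and Hsp70Bb fell by 2.14 and 1.99 from low levels, with reads that near-identical Hsp70 copies share, and Hsp70Ab was not called without clamp null female 5 (adjusted p = 0.119). The chaperone Hsp83 had 179, 149 and 190.4 TPM in clamp null females, against 244, 230.0 and 138 TPM in control females, which overlapped. Of 10 cell death regulators, 5 fell and none rose. The initiator caspase Dronc had 7.67, 6.21 and 11.1 TPM in clamp null females, against 35.6, 29.0 and 22.1 TPM in control females (log2 fold change -1.69, adjusted p = 0.00458). The effector caspases Drice and Dcp-1, the apoptosome protein Dark and the caspase inhibitor Diap1 fell by 1.43, 1.26, 1.01 and 0.75. The death inducers rpr and hid were under 7 TPM and were not called. With the median-of-ratios factor 3 of the 10 fell, and 2 to 4 did with 1 library left out, with Dcp-1, Dark and Diap1 losing their calls (adjusted p = 0.0935 to 0.107). Of 19 autophagy genes, 4 fell (21.1%, against 16.8% of all genes) and 1 rose, and 2 fell without control female 2. Atg7 fell by 2.26, and Atg10 had 91.3, 54.8 and 118 TPM in clamp null females, against 10, 8.16 and 11.9 TPM in control females (log2 fold change 2.96).

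Genes of the ecdysone response were lower. Of 16 genes of the ecdysone receptor and its early response, 9 fell and 1 rose. The largest fall was in ImpE2, an ecdysone-induced gene of imaginal discs, at 2.10, 0.223 and 1.19 TPM in clamp null females and 122, 100.2 and 62.9 TPM in control females (log2 fold change -5.52, standard error 0.40, adjusted p = 4.63e-05 from limma). br, the early gene that directs the larva to metamorphosis, had 12, 7.36 and 23.1 TPM in clamp null females, against 157, 75.7 and 48.2 TPM in control females (log2 fold change -2.61, adjusted p = 0.00514). Eip75B, Eip78C, Hr4 and Eip74EF, other transcription factors of the cascade, fell by 1.66, 2.33, 1.61 and 1.19. For the receptor, EcR had 8.52, 4.27 and 10.1 TPM in clamp null females, against 40.0, 25 and 12.5 TPM in control females (log2 fold change -1.56), and its partner usp was not called. Cyp18a1, which inactivates ecdysone, rose to 42.3, 24.6 and 20.6 TPM in clamp null females, against 4.08, 6.51 and 9.70 TPM in control females (log2 fold change 1.96). The calls of EcR, Eip74EF, ImpE1 and Hr4 were each lost without 1 library (adjusted p = 0.12 without control female 2 for EcR, and 0.135, 0.138 and 0.0573 without clamp null female 5 for the others), and 5 to 8 of the 16 genes fell with 1 library left out. Of 10 genes of ecdysone synthesis, 3 fell and none rose. For sro, an enzyme of that pathway, TPM were 1.92, 3.53 and 15.9 in clamp null females, against 52.7, 55.8 and 45.9 in control females, and the enzyme sad and the sterol carrier Start1 fell by 2.54 and 1.57. The other enzymes measured were not called, among them dib, at 8.80, 7.64 and 9.14 TPM in clamp null females and 8.45, 5.51 and 7.85 TPM in control females. Among late puffs, Eig71Ee had 0, 0 and 84.1 TPM in clamp null females, against 1290.3, 635 and 176 TPM in control females, a call lost without control female 2 (adjusted p = 0.0641), and Eig71Eg was listed at 0 in each clamp null library, with 4.59, 4.73 and 13.3 TPM in control females. Stage within L3 was not measured apart from such genes, so stage and genotype cannot be told apart.

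Lists for the salivary gland and the fat body each held genes that rose and genes that fell. Of 10 salivary gland genes other than the glue genes, 3 rose and 1 fell. The transcription factor sage had 1.26, 0 and 7.29 TPM in clamp null females, against 73.5, 77.5 and 60.4 TPM in control females (log2 fold change -4.74, standard error 0.64, adjusted p = 0.00104 from limma). The pre-intermoult genes ng1, ng2 and ng3, which the gland makes in mid L3 before the glue, rose. ng1 had 1768, 1076 and 1784 TPM in clamp null females, against 60.1, 49.4 and 254 TPM in control females (log2 fold change 4.03), and ng2 and ng3 rose by 4.63 and 2.44. The gland regulators fkh and CrebA were not called. Of 9 serum and fat body proteins, 3 rose and 4 fell, and without control female 2 it was 2 and 3. Fbp1, the receptor for larval serum proteins, had 1.20, 0.103 and 37.0 TPM in clamp null females, against 6147, 5228 and 3459 TPM in control females. Fbp2 fell by 3.16, and the serum protein Lsp1alpha by 2.29. The other subunits of that serum protein went the opposite way: Lsp1beta had 8062, 5315 and 6927 TPM in clamp null females, against 1769, 1692 and 2362 TPM in control females (log2 fold change 1.80, adjusted p = 0.001), and Lsp1gamma rose by 0.99. Lsp2 had 78.8, 422 and 2579.9 TPM in clamp null females 4, 5 and 6, against 3089, 3600.2 and 3619 TPM in control females, and was close to the controls in clamp null female 6. Leaving out control female 2 lost the calls of Lsp2 and Lsp1gamma (adjusted p = 0.161 and 0.178).

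Cuticle genes moved in both directions at a nearly constant total. Lcp and Cpr genes, which encode chitin-binding proteins of the larval cuticle, summed to 72538 ± 13469 TPM (SD, n = 3) in clamp null females and 69632 ± 6189 TPM in control females. Within this total, 23 of 57 genes rose and 10 fell, against 12% and 16.8% of all genes, and 24 rose and 6 fell with the median-of-ratios factor. Neighbouring genes of the cluster at 44D on chromosome 2R, within 8430115 to 8438495, changed in opposite directions. Lcp1 had 337, 566 and 2129 TPM in clamp null females, against 20063, 16197 and 9809 TPM in control females (log2 fold change -4.31, standard error 0.59, adjusted p = 0.0011 from limma), and Lcp2, its close copy, fell by 5.19. Lcp3 had 22349, 28557 and 19179.7 TPM in clamp null females, against 2452, 4169 and 6461 TPM in control females (log2 fold change 2.51, standard error 0.34, adjusted p = 0.00108). Lcp4, next to them, had 19573, 31830.5 and 23419 TPM in clamp null females, against 20508, 22169.6 and 25301 TPM in control females, and did not differ beyond the spread. Among genes near 0 in controls, Cpr47Eg and Lcp65Ag1 rose most; Lcp65Ag1 had 1163, 837 and 124 TPM in clamp null females, against 0, 6.18 and 0 TPM in control females, with reads that Lcp65Ag2 and Lcp65Ag3 may share. Cpr47Eb had 1173, 943 and 700.2 TPM in clamp null females, against 52, 87.2 and 164 TPM in control females (log2 fold change 3.33). Cpr49Ac fell to 118, 133 and 377 TPM in clamp null females, against 2592, 1434 and 1045 TPM in control females (log2 fold change -3.11). Cpr78E was spread widely, at 12.3, 199 and 1225 TPM in clamp null females and 4163, 3497 and 1263 TPM in control females (log2 fold change -4.16), and its call was lost without control female 2 (adjusted p = 0.157). Without that library, 16 of the 57 genes rose and 3 fell.

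**Figure D4:**
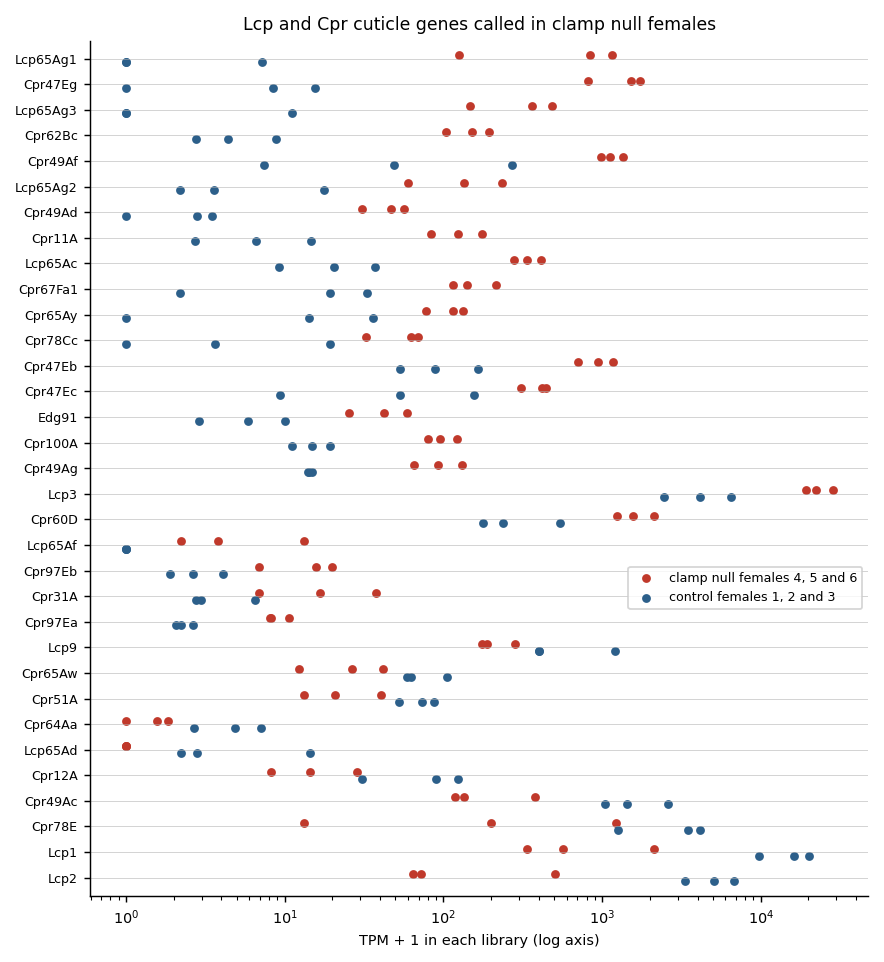
TPM + 1 (log axis) in each library for the 33 Lcp and Cpr genes called, with clamp null females in red just above control females in blue, ordered by log2 fold change. The 23 genes that rose are at the top, and Lcp1 and Lcp2 are at the bottom.

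Other structural proteins of the cuticle and of chitin also rose. Of 13 Twdl and Osi genes tested, 6 rose and none fell, all of them Tweedle genes, which encode another class of cuticle proteins. TwdlE had 98.7, 109.9 and 107 TPM in clamp null females, against 28.5, 19.9 and 21.8 TPM in control females (log2 fold change 2.13, standard error 0.24, adjusted p = 0.000467 from limma). Of 26 genes of chitin synthesis and breakdown, 7 rose and 2 fell. The chitin deacetylases verm and serp, the chitinases Cht7 and Cht6 and the chitin-binding protein obst-A rose by 2.01, 1.90, 2.10, 2.07 and 1.78, and obst-J fell by 2.24. For the chitin synthase kkv, TPM were 59.7, 31.9 and 39.4 in clamp null females, against 23.0, 25.8 and 20.0 in control females, which did not overlap but missed the threshold (adjusted p = 0.0547). Of 18 enzymes that harden and darken the cuticle, 3 rose and 3 fell (16.7% each, against 12% and 16.8% of all genes), 1 rose and 3 fell without control female 2, and 6 rose and 3 fell with the median-of-ratios factor. Ddc, which makes dopamine, had 14.2, 13.9 and 8.56 TPM in clamp null females, against 69.1, 56.5 and 62.9 TPM in control females (log2 fold change -2.30, adjusted p = 0.000586). Pu, which provides the cofactor for the same pathway, fell by 2.36. In contrast, yellow-f2 and stw rose by 2.22 and 1.27, and stw was not called without control female 2 (adjusted p = 0.066). Of 6 imaginal disc growth factors, secreted relatives of chitinases, 4 rose and none fell, and 2 rose without control female 2: Idgf2 had 82.5, 88.2 and 75 TPM in clamp null females, against 21.8, 21.8 and 24.2 TPM in control females.

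Genes of the humoral immune response were higher in clamp null females. Of 16 antimicrobial peptide genes tested, 11 rose and 1 fell, with a median log2 fold change 3.10 above that of all genes. Drs (Drosomycin, an antifungal peptide controlled by the Toll pathway) had 309, 968 and 330.1 TPM in clamp null females, against 123, 41.1 and 79.1 TPM in control females (log2 fold change 2.63, standard error 0.50, adjusted p = 0.00558 from limma). DptA (Diptericin, controlled by the Imd pathway) had 91.9, 448 and 674 TPM in clamp null females, against 52.2, 22.4 and 41.0 TPM in control females (log2 fold change 3.03). Mtk was listed at 0 in each control female, with 13.4, 69.9 and 28.6 TPM in clamp null females. Peptides of both pathways thus rose. The clamp null libraries differed among themselves: the 20 genes in the files summed to 789.5, 4095 and 1911 TPM in clamp null females 4, 5 and 6, against 332.5, 192.8 and 445.9 TPM in control females, and Dro reached 1059 TPM in clamp null female 5 beside 85.4 and 152 TPM in the other two. Drsl2, a relative of Drs, fell by 3.47. Without control female 2, 5 of the 16 genes rose, and Dro, DptA and Def were not called (adjusted p = 0.0735, 0.0647 and 0.132).

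Further induced immune genes, grouped after their values were seen, rose in part. Of 12 Bomanins, short peptides made under Toll control, 7 rose, 5 were not called and none fell. Their log2 fold changes ran from -1.75 to 5.86. BomBc3 had 22.6, 101 and 78.9 TPM in clamp null females, against 0.439, 0 and 0 TPM in control females, and BomT3 had 64.7, 76.3 and 72.5 TPM in clamp null females, against 0.889, 0 and 0 TPM in control females. IBIN, a peptide gene induced on infection, had 1428, 5378 and 4276 TPM in clamp null females, against 55.8, 37.6 and 24.1 TPM in control females. Of 7 Daisho and Baramicin genes, 4 rose, 3 were not called and none fell. Dso1 and Dso2, the Daisho peptides, rose by 6.43 and 5.92 on the log2 scale. BaraA2 had 262, 362 and 212 TPM in clamp null females and was listed at 0 in each control female, while its near-identical copy BaraA1 had 0, 418 and 329.7 TPM in clamp null females and 8.36, 13.8 and 10.5 TPM in control females, so their reads may have been split between them. Of the stress peptides, TotA had 676, 2078 and 1942 TPM in clamp null females, against 197, 352 and 126 TPM in control females (log2 fold change 2.76), and TotC rose by 6.05. Of the genes named here, all but BaraA1 were higher in every clamp null library than in every control library. These genes were named from called genes or after their values were seen, so the choice favoured such genes. TPM did not overlap at 6 of the 12 Bomanins and 5 of the 7 Daisho and Baramicin genes, against 46.6% of all genes.

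Peptidoglycan receptors and lysozymes divided. Of 18 tested, 5 rose and 4 fell. The amidases PGRP-SC1a, PGRP-SC1b and PGRP-SC2, which lie side by side on chromosome 2R between 8709733 and 8717695 and cut peptidoglycan in the gut, rose together. PGRP-SC2 had 138, 46.6 and 128 TPM in clamp null females, against 8.37, 12.8 and 15.7 TPM in control females (log2 fold change 2.87, standard error 0.43, adjusted p = 0.00174 from limma), and PGRP-LF, which dampens the Imd pathway, rose by 2.37. The digestive lysozymes on chromosome 3L fell, LysX to 3.58, 1.10 and 0.837 TPM in clamp null females, against 101, 189 and 252 TPM in control females (log2 fold change -6.03). LysB and LysD, near-identical copies, fell by 4.40 and 4.55. LysP in the same cluster had 153, 71.3 and 126 TPM in clamp null females, against 17.4, 11.2 and 7.27 TPM in control females (log2 fold change 3.19). Markers of hemocytes, the blood cells, rose in part. Of 15, 5 rose (33.3%, against 12% of all genes), 1 fell and 9 were not called, eater, crq, Pxn and vkg among them. Those that rose mark plasmatocytes, the phagocytes, or their matrix: NimC1 had 42.2, 41.9 and 35.7 TPM in clamp null females, against 2.48, 3.68 and 1.52 TPM in control females (log2 fold change 3.57, standard error 0.31, adjusted p = 0.000118), and Hml, Sr-CI, Ppn and SPARC rose by 2.53, 2.57, 2.11 and 1.31. Crystal cell genes did not rise: PPO1 had 70.3, 57.5 and 37.5 TPM in clamp null females, against 74.4, 39.4 and 48.9 TPM in control females, and lz, at 0.998, 1.19 and 0.245 TPM in clamp null females and 2.84, 3.16 and 2.57 TPM in control females, fell by 1.13, a call lost without control female 2 (adjusted p = 0.125). The 15 genes summed to 1820, 1439 and 1228 TPM in clamp null females, against 727.8, 732.1 and 881.6 TPM in control females.

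Lists for the gut held genes that rose and genes that fell. Of 9 genes of carbohydrate digestion, 3 fell and none rose, and all 9 had a negative log2 fold change. Amy-p, an amylase, had 11.9, 4.76 and 18.6 TPM in clamp null females, against 227, 206 and 96.6 TPM in control females (log2 fold change -3.88, standard error 0.48, adjusted p = 0.000682 from limma), and its neighbouring copy Amy-d fell by 3.16. The maltase Mal-A6 fell by 3.71. Of 28 trypsins and Jonah proteases, 4 rose and 4 fell (14.3% each), shares near the 12% and 16.8% of all genes. Jon25Bi had 18.1, 16.7 and 11.5 TPM in clamp null females, against 211, 181 and 342 TPM in control females (log2 fold change -3.87), whereas Jon65Ai had 3261, 655 and 1898 TPM in clamp null females, against 102, 306 and 543 TPM in control females (log2 fold change 2.63). Their sum was widely spread, at 47004, 10570.0 and 26951 TPM in clamp null females and 6461, 12870.0 and 22811 TPM in control females, which overlapped. None of the 28 rose without clamp null female 4, without clamp null female 6 or without control female 2, and 1 fell without control female 2. Jon65Ai had an adjusted p of 0.0768 from limma without clamp null female 4. Of 9 proteins of the peritrophic matrix, the sleeve that lines the gut, 4 rose and none fell. Among them Muc11A had 361, 154 and 174 TPM in clamp null females, against 16.3, 17.7 and 23.7 TPM in control females (log2 fold change 3.42), and Peritrophin-A rose by 1.12. Of 9 genes of the Malpighian tubules, the kidney of the fly, 4 rose and 1 fell. Uro (urate oxidase) had 115.4, 135 and 91.4 TPM in clamp null females, against 41.8, 48.2 and 40.6 TPM in control females (log2 fold change 1.35).

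Detoxification enzymes changed gene by gene. Of 70 cytochrome P450 genes, 32 rose and 9 fell, against 12% and 16.8% of all genes, and 34 rose and 5 fell with the median-of-ratios factor. Cyp4e3 had 180.2, 131 and 202 TPM in clamp null females, against 2.18, 2.47 and 0.913 TPM in control females (log2 fold change 5.94, standard error 0.32, adjusted p = 8.79e-06 from limma). Cyp6a2, an enzyme of insecticide resistance, had 96.3, 42.7 and 41.6 TPM in clamp null females, against 1.19, 4.36 and 10.1 TPM in control females (log2 fold change 3.48). Cyp4g1, which makes cuticular hydrocarbons in oenocytes, rose by 2.20. In the opposite direction, Cyp4p2 had 0, 0.710 and 0.359 TPM in clamp null females, against 41.8, 35.1 and 16.9 TPM in control females (log2 fold change -4.51), and Cyp12d1-p fell by 2.16. With 1 library left out, 21 to 25 of the 70 rose and 4 to 9 fell. Among 20 UDP-glycosyltransferases 7 rose and 4 fell, and with the median-of-ratios factor 1 of them fell. Ugt35C1 rose by 3.72 and Ugt36D1 fell by 3.21. Of 29 glutathione S-transferases 4 rose (13.8%) and 2 fell (6.9%), with 7 higher under the same factor. Of the metallothioneins, metal-binding proteins that were grouped after their values were seen, MtnA had 5434, 4842 and 4795 TPM in clamp null females, against 357, 294 and 515 TPM in control females (log2 fold change 3.73), and MtnB fell by 2.17, a call that was lost without clamp null female 4 (adjusted p = 0.0644).

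Odorant-binding proteins, small secreted carriers of hydrophobic molecules, differed in both directions. Of 23 genes, 10 rose and 7 fell, with or without the median-of-ratios factor. The total was set by Obp99b, which had 2.20, 42.2 and 2137 TPM in clamp null females 4, 5 and 6, against 30617, 28366 and 25532 TPM in control females (log2 fold change -8.72, standard error 1.81, adjusted p = 0.00802 from limma). Of all genes, only the glue gene Sgs7 lost more TPM, and clamp null female 6 kept a part of Obp99b. The adjusted p of Obp99b was 0.0503 without control female 2. Obp56d and Obp99a fell by 2.80 and 3.47. Obp49a had 248, 387 and 131 TPM in clamp null females, against 11.7, 5.15 and 3.23 TPM in control females (log2 fold change 5.08, standard error 0.48, adjusted p = 0.000197), and Obp28a rose by 2.71.

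Patterning genes of the imaginal discs, the sacs from which adult structures grow, were lower in part. Of 23 tested, 8 fell and none rose. The wing gene nub had 1.39, 0.133 and 1.74 TPM in clamp null females, against 6.04, 10.5 and 8.63 TPM in control females (log2 fold change -2.24, standard error 0.42, adjusted p = 0.00488 from limma). The retinal gene eya had 0.129, 0.238 and 2.20 TPM in clamp null females, against 7.43, 10.4 and 7 TPM in control females (log2 fold change -2.48). The posterior signal hh had 1.62, 1.08 and 2 TPM in clamp null females, against 7.39, 7.77 and 10.6 TPM in control females (log2 fold change -1.90). Levels were low throughout, and those of wg, dpp, ci, ap and Dll were not called. The calls of vg, dac, danr, en and dan were lost without control female 2 (adjusted p = 0.0546 to 0.136), which left 3 of the 23 lower. Cell cycle genes, which dividing disc and brain cells use most, had a negative log2 fold change in 36 of 39, against 5899 of the 9562 genes tested. Of the 39, 6 fell (15.4%, against 16.8% of all genes) and none rose. The mitotic cyclins CycB and CycA fell by 1.76 and 1.66. None of the 39 was called without control female 2, and 3 were with the median-of-ratios factor. Of 13 neuron genes only VGlut was called, 1.29 lower, at 0.227, 0 and 0.860 TPM in clamp null females and 2.42, 2.39 and 1.87 TPM in control females (adjusted p = 0.0367, and 0.0929 without control female 2). Of 8 glia genes, bdl and moody rose by 1.70 and 1.34 and wrapper fell by 1.10. Each of these calls was lost with 1 library left out (adjusted p = 0.056 to 0.157). The synaptic gene nSyb had 7.15, 1.46 and 9.92 TPM in clamp null females, against 13, 9.11 and 2.97 TPM in control females. Of 5 germline genes tested, only bam, the switch to differentiation, was called. It had 0.439, 0.216 and 1.31 TPM in clamp null females, against 36.8, 18.3 and 11.1 TPM in control females (log2 fold change -3.70, standard error 0.46, adjusted p = 0.000674). The full list of 21 summed to 24.5, 14.7 and 25.5 TPM in clamp null females, against 69.1, 39.6 and 23.6 TPM in control females, which overlapped.

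Hormone genes changed singly. Of 27 neuropeptide and peptide processing genes, 3 rose and 3 fell (11.1% each, against 12% and 16.8% of all genes). The epidermal peptide precursor Nplp4 had 9888, 10734 and 6594 TPM in clamp null females, against 757, 627 and 815 TPM in control females (log2 fold change 3.60, standard error 0.25, adjusted p = 3.88e-05 from limma). Nplp2 rose by 3.03 and Akh, the hormone that mobilizes stores, by 1.14. SIFa had 1.33, 0 and 0.921 TPM in clamp null females, against 17.2, 8.09 and 14.9 TPM in control females (log2 fold change -3.07), and CCAP, which acts at ecdysis, fell by 1.57. Nplp2, Akh and CCAP were not called without control female 2 (adjusted p = 0.0839, 0.119 and 0.0749). Of 13 genes of the juvenile hormone pathway, 2 rose (15.4%) and 1 fell (7.69%). The largest change was that of to (takeout), at 13.5, 36.4 and 19.9 TPM in clamp null females and 0, 0.335 and 1.39 TPM in control females. Of 16 genes of insulin signalling and growth only chico, the insulin receptor substrate, was called, 1.59 higher (adjusted p = 0.0162, and 0.0666 without control female 2).

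Parts of the translation machinery differed from one another. Cytosolic ribosomal proteins summed to 319847 ± 32487 TPM (SD, n = 3) in clamp null females and 306258 ± 21130.0 TPM in control females. Of 82, 13 rose (15.9%, near the 12% of all genes) and 1 fell, and without control female 2 it was 4 and 0. RpL22, the largest rise, had 3069.9, 2572 and 2644 TPM in clamp null females, against 1308, 779 and 629 TPM in control females (log2 fold change 1.67, adjusted p = 0.00326 from limma). Of 44 translation factors tested, 6 rose (13.6%) and 3 fell (6.82%), and without control female 2 it was 4 and 2. The full list of 52 summed to 20610, 15763 and 17071 TPM in clamp null females, against 10916, 10524 and 9281 TPM in control females, which did not overlap. The forms of elongation factor 1 alpha parted: eEF1alpha1, the general form, had 9103, 6112 and 6958 TPM in clamp null females, against 3427, 2417 and 1909.8 TPM in control females (log2 fold change 1.54), and eEF1alpha2 had 4.77, 2.87 and 12 TPM in clamp null females, against 44.8, 51.3 and 34.9 TPM in control females (log2 fold change -2.74). Of 72 mitochondrial ribosomal proteins, 7 fell (9.72%, against 16.8% of all genes) and 1 rose. With the median-of-ratios factor 3 fell and 3 rose. None of 18 ribosome biogenesis genes was called, Nop56 among them at 21.1, 22.8 and 29.9 TPM in clamp null females and 29.1, 39.5 and 32.2 TPM in control females. Of 22 genes of the secretory pathway, 3 fell (13.6%, under the 16.8% of all genes) and none rose. The falls were led by KdelR at -1.14, with none called without control female 2.

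Regulators in the nucleus that share DNA sites, targets or steps with CLAMP were lower in part. Of 16 GA-binding and insulator factors, 6 fell (37.5%) and 1 rose (6.25%), against 16.8% and 12% of all genes. The GAGA factor gene Trl, whose protein binds the same kind of repeat as CLAMP, had 34.1, 28.0 and 44.4 TPM in clamp null females, against 63.7, 66.4 and 58.5 TPM in control females (log2 fold change -0.83, adjusted p = 0.038 from limma). The zeste gene z and the insulator genes mod(mdg4), su(Hw) and BEAF-32 fell by 1.37, 1.44, 1.25 and 1.17. In contrast, CTCF rose to 38.1, 28.8 and 37.8 TPM in clamp null females, against 8.59, 9.92 and 7.29 TPM in control females (log2 fold change 1.90, standard error 0.26, adjusted p = 0.00121). Without control female 2, 1 of the 16 fell, z, against 6.29% of all genes that fell, and Trl had an adjusted p of 0.129. It was 0.0839 with the median-of-ratios factor. Of 16 genes of dosage compensation and sex determination, Clamp, tra, dsx and vir fell (25%, against 16.8% of all genes) and fru rose. The calls of Clamp, dsx and vir were lost with 1 library left out (adjusted p = 0.0628 to 0.105). For tra, TPM were 13.6, 13.4 and 19.1 in clamp null females, against 37.5, 52.2 and 38.4 in control females (log2 fold change -1.42). The complex genes mle, mof, msl-1, msl-2 and msl-3 were not called. Of 27 splicing factors, 8 fell (29.6%, against 16.8% of all genes) and 1 rose. Under the median-of-ratios factor 4 were lower, and 1 was without control female 2, where 6.29% of all genes fell. The SR protein gene x16 had 13.4, 15.1 and 23.5 TPM in clamp null females, against 57.8, 72.6 and 45.9 TPM in control females (log2 fold change -1.72, adjusted p = 0.00374). SC35 fell by 0.99 and ps (pasilla) rose by 1.95, and neither was called without control female 2 (adjusted p = 0.103 and 0.0712).

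Several of the largest changes by fold were in genes known by a CG number. In 13 genes the value was listed at 0 in each control female and at 10 TPM or more in each clamp null female, and in 5 genes the reverse held. Since the proteasome gene Prosalpha1 was also listed at 0, such a 0 may be an estimate and not an absence. CG14419 and CG3588, which lie close together on the X chromosome (2885186 to 2885914 and 2919770 to 2924426), had 1784, 1246 and 1094 TPM and 632, 332 and 428 TPM in clamp null females, and were among the 13. CG12491 had 373, 164 and 107 TPM in clamp null females. Next to it on chromosome 2R, CG13560 had 3874, 1155 and 2434 TPM in clamp null females, against 8.36, 2.11 and 4.89 TPM in control females (log2 fold change 8.64, standard error 0.50, adjusted p = 1.29e-05 from limma). In TPM, the largest rises after Lcp3 were CG17325, at 7207, 13326 and 7503 TPM in clamp null females and 632, 1195 and 1015 TPM in control females, and Nplp4.

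Among the genes with the largest falls, several were neighbours on chromosome 3R. CG34279, CG42798, CG33333, CG42834 and CG14332 lie between 17402362 and 17422202, and CG42798, CG33333, CG42834 and CG14332 were listed at 0 in each clamp null female. CG33333 had 339, 403 and 217 TPM in control females, and CG14332 had 247, 341 and 99.8 TPM. CG34279 had 0, 0 and 16 TPM in clamp null females, against 571, 678 and 391 TPM in control females (log2 fold change -7.70, standard error 0.94, adjusted p = 0.000631 from limma). Not every gene of this stretch fell, since CG42821, chosen after its values were seen, lies among them and rose (log2 fold change 3.82). Elsewhere, CG9021 on chromosome 2L had 0, 0.338 and 2.84 TPM in clamp null females, against 323, 333 and 279 TPM in control females (log2 fold change -7.50, adjusted p = 1.74e-05). Clamp null female 6 held small amounts of CG34279, CG9021, Obp99b, Fbp1 and Eig71Ee that the other clamp null libraries lacked or held less of.

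By chromosome, on the X, 128 of 1520 genes (8.42%) rose and 290 (19.1%) fell, against 12% and 16.8% of all genes, with a median log2 fold change 0.14 below that of all genes. On the small chromosome 4, 7 of 68 (10.3%) rose and none fell, and the median was 0.39 above that of all genes. On 2L, 2R, 3L and 3R the medians lay between 0.01 below and 0.08 above that of all genes.

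Isoform use was measured as the share of each transcript in the TPM of its gene. Of 7206 transcripts of 2702 genes, 27 (0.375%) differed at an adjusted p under 0.05 and a difference in mean share of at least 0.1, 13 higher and 14 lower in clamp null females, in 17 genes. At an unadjusted p under 0.05 there were 789, so few calls passed the correction, and 6 to 38 did with 1 library left out, fewest without clamp null female 4, where the calls in fon-RA, CG14621 and Atg16 were lost (adjusted p = 0.102 to 0.126). Of the 17 genes, 6 also differed in expression. Genes with at least 10 TPM in every female library held 5 of the calls, in fon, CG14621 and Atg16. fon (fondue), which encodes a protein of the hemolymph clot, changed its main transcript. fon-RA made up 0.780, 0.858 and 0.802 of the gene in clamp null females, against 0.203, 0.251 and 0.304 in control females (difference 0.561, standard error 0.058, adjusted p = 0.0296 from limma), and fon-RC made up 0.178, 0.046 and 0.092 in clamp null females, against 0.723, 0.640 and 0.624 in control females. Their coding lengths are 1695 and 1731 nucleotides. The level of fon itself was not called. CG14621-RB took the place of CG14621-RA, which has the same coding length of 1119 nucleotides, with shares of 0.925, 0.970 and 0.842 in clamp null females, against 0.226, 0.257 and 0.332 in control females. Atg16-RB, from an autophagy gene, had shares of 0.691, 0.824 and 0.781 in clamp null females, against 0.265, 0.277 and 0.258 in control females (difference 0.499, adjusted p = 0.0489). At a lower level, 2 transcripts of Tsp, a thrombospondin of muscle attachment sites chosen after its values were seen, replaced each other: Tsp-RD had shares of 0.937, 0.924 and 0.927 in clamp null females, against 0 in each control female, with the same coding length of 1257 nucleotides as Tsp-RE. The smallest adjusted p was that of Dcr-2 (0.0045 from limma, at most 0.0382 with 1 library left out), at 3.56 to 6.44 TPM. Dcr-2-RA had a share of 1 in each clamp null female and 0 in each control female, and Dcr-2-RB the reverse. Their coding lengths are 5166 and 5163 nucleotides, so the division of reads between these near-identical transcripts is uncertain.

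When only genes with at least 10 TPM in every female library were tested, 59 of 3777 transcripts in 41 genes were called, including the 5 above. The following were chosen from them after their values were seen, and none passed the test over all 7206. The chitin synthase gene kkv has 2 transcripts of equal length, 5524 nucleotides. kkv-RD made up 0.88, 0.88 and 0.82 of the gene in clamp null females, against 0, 0.31 and 0.21 in control females (adjusted p = 0.0426 over the 3777), and kkv-RC the rest in those libraries. SERCA-RE, a form of the calcium pump that was minor in control females, had shares of 0.50, 0.35 and 0.36 in clamp null females, against 0, 0.01 and 0.06 in control females. Trl-RB fell in share, at 0.10, 0.06 and 0.16 in clamp null females and 0.48, 0.48 and 0.41 in control females. SC35-RC gained share, at 0.48, 0.43 and 0.41 in clamp null females and 0.08, 0.06 and 0.11 in control females, and keeps the coding length of SC35-RB, 585 nucleotides. For Clamp-RA, the share was 0.47, 0 and 0.32 in clamp null females, against 0.74, 0.71 and 0.77 in control females, a difference of -0.478 that missed the threshold over all transcripts (adjusted p = 0.262).

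**Figure D5:**
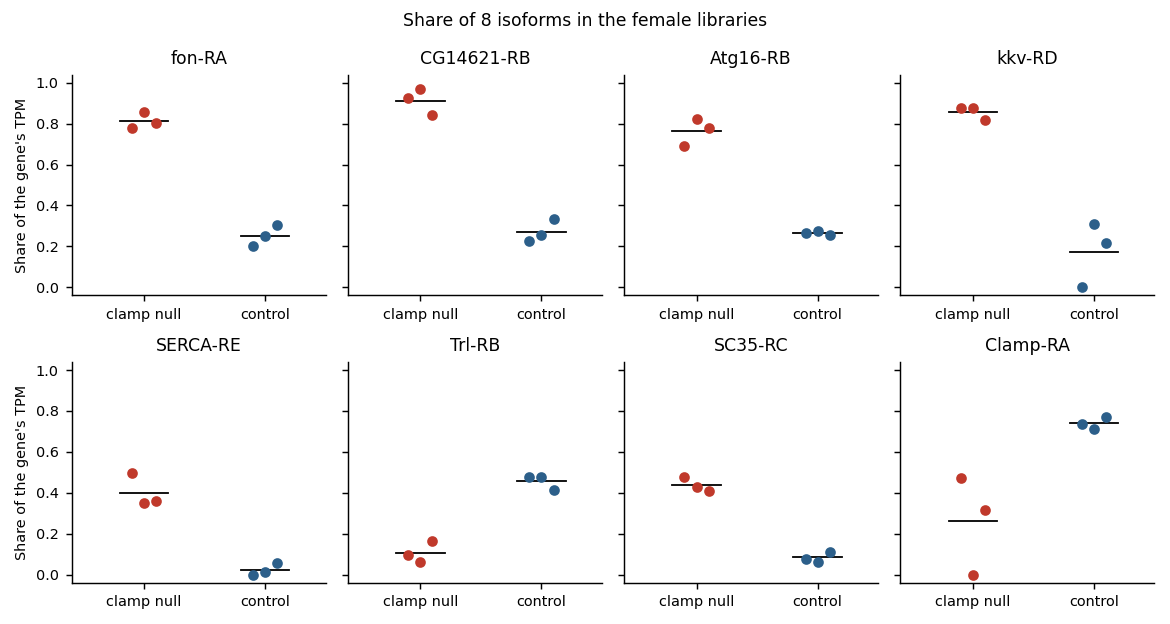
Share of the TPM of a gene that comes from 1 transcript (vertical axis, 0 to 1) for 8 isoforms in each female library, with clamp null females left in red, control females right in blue and the mean of 3 libraries as a line. The groups do not overlap in any panel, but all panels except Clamp-RA show transcripts picked from those called. Over all 7206 transcripts tested, the shares of 1358 (18.8%) do not overlap. fon-RA, CG14621-RB and Atg16-RB passed the test over all 7206 transcripts, and Clamp-RA did not pass either test.

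The change in females was set against that in males by the interaction of genotype and sex over all 12 libraries. The interaction passed the threshold at 104 of the 9562 genes (1.09%), with the log2 fold change of females minus that of males positive at 101 and negative at 3. The log2 fold change in males was negative at 97 of the 104, and it was larger in size in males at 85 and in females at 19. At 94 of the 104 genes, control males had the highest mean of control males and both female groups, and 36 of the 104 were also called in females. Without clamp null male 6, the library with testis genes, 331 genes passed, including all 104, and with the median-of-ratios factor 38 passed. Leaving out 1 library at a time gave 22 to 331. Among them, Eip78C fell in females, and in males it had 0.432, 0 and 0.172 TPM in clamp null males, against 21, 53.8 and 32.4 TPM in control males.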

How the data were processed

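The authors quantified each library with Salmon for SUPPA in the time2splice pipeline and deposited TPM per transcript, scaled to 1000000 a library, with no counts and no filter (a FlyBase release 6 annotation, genome dm6). Poly-A RNA had been primed with random hexamers and sequenced as read pairs, and whether strand was kept is not given in the sources used here. Salmon divides reads between near-identical copies by estimate, so values of such copies are uncertain.

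From these files, gene TPM was summed with the Ensembl release 115 annotation (BDGP 6.54), which held 29926 of the 29936 transcripts. Libraries were grouped by genotype and sex in their titles. Genes averaging 1 TPM or more over the 6 female libraries were tested on log2(TPM + 1) by limma 3.58.1 with a variance trend in R 4.3.3, with Benjamini-Hochberg adjustment over all genes. Log2 fold changes on this scale understate changes of low genes. Isoform shares were tested by limma without a trend, for genes with at least 2 transcripts and 3 TPM in each library and transcripts with a mean share of 0.05 to 0.95. Some shares had no spread within a group, for which limma raises the variance from 0. Depth is unknown, so the spread between 3 libraries was the measure of error. The study calls its replicates biological in a general checklist, and the labels do not tie libraries to separate cultures, so p-values measure the spread between these libraries, which may be technical.

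Named genes were Clamp, the 10 genes per direction with the largest fold change (higher group at 10 TPM or more, glue genes left out) and with the largest TPM difference among called genes without overlap, up to 4 called members per direction of each list (other members, and members not called, were chosen after their values were seen), the transcripts of sex determination genes as a check of the titles, and the leading isoforms and interaction genes. Lists and members were chosen with earlier results of these data known. The tests were also run on simulated libraries made from the means and spreads of these data, with results not given here. Tables were handled with Python 3.11.15, pandas 2.3.3 and numpy 2.4.6, and figures drawn with matplotlib 3.10.9. Alternatives are given in the closing section.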

Additional observations from a re-analysis of the deposited data

Results flagged for a closer look

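The effect of the clamp null genotype differed between females and males, by the interaction term over all 12 libraries (limma, adjusted over 9562 genes), at the genes given here, those with the smallest adjusted p in each direction and named genes among the 104. Values are the log2 fold change in females minus that in males. BaraA2 differed by 8.09: it had 262, 362 and 212 TPM in clamp null females 4, 5 and 6 and was listed at 0 in all 9 other libraries, while its near-identical copy BaraA1 had 7.66 to 243 TPM in those. Eip78C differed by 2.52, with 0.104, 0.109 and 0.162 TPM in clamp null females and 7.17, 3.13 and 4.33 TPM in control females, and 0.432, 0 and 0.172 TPM in clamp null males and 21, 53.8 and 32.4 TPM in control males. CG5050, CG16984, CG14995 and Cby differed by 4.29, 3.20, 4.27 and 4.0, and each was highest in control males: CG14995 had 21.6, 15.3 and 14.7 TPM in clamp null females and 6.82, 7.22 and 4.55 TPM in control females, beside 164, 203 and 172 TPM in control males. In the opposite direction, CG43182, Adh and CG7798 differed by -4.44, -2.33 and -3.21. Adh (alcohol dehydrogenase) had 628, 564 and 367 TPM in clamp null females and 272, 269.6 and 361 TPM in control females, and 486, 474 and 704 TPM in clamp null males and 50.9, 60.8 and 81.0 TPM in control males. With the sex of the clamp null libraries resting on titles, the part of the labels in these differences was not tested. At 94 of the 104 genes, the control male mean was above both female means. In the files, 627 genes had at least 5 TPM in each control male and under 0.5 TPM in each control female. Clamp null males 4, 5 and 6 held 25, 20 and 499 of them at 1 TPM or more. The part of such male-only RNA in these differences was not tested either.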

How the results depend on the processing

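Leaving out 1 library at a time gave 1291 to 2420 genes that differed between clamp null and control females, 690 to 1077 higher and 601 to 1486 lower, with the fewest without control female 2. The count under each other setting (no TPM minimum or 5 TPM, a pseudocount of 0.1, no variance trend, all 12 libraries, glue genes left out of the scaling, median-of-ratios scaling, a log2 fold change of at least 1) was within 1.5 times of 2751, from 2302 to 3240, and no called gene turned its direction. With glue genes left out of the scaling, 1016 genes were higher and 2224 lower. The isoform counts were less stable: 63 (34 higher, 29 lower) with all 12 libraries, 11 (5 higher, 6 lower) on the arcsine square root scale, 59 (29 higher, 30 lower) in genes at 10 TPM or more, and 6 to 38 (4 to 22 higher, 2 to 18 lower) with 1 library left out. The interaction gave 38 genes with median-of-ratios scaling and 22 to 331 with 1 library left out. In females, CG43182, which was not called (log2 fold change -0.43), ranged from -0.89 to 0.07 with 1 library left out. The causes of these shifts were not tested. No paired analysis was possible between clamp null and control because these groups share no library numbers. Females and males of a genotype share them, so a replicate block on the number, chosen after seeing the data, was added to the interaction, which then gave 57 genes (48 positive, 9 negative), 48 of them among the 104. The numbers did not pair the sexes: deviations of same-numbered libraries from their group means correlated at -0.066 to 0.296 over genes, and 3 of 6 female libraries correlated best with their own number. Depth is unknown, so no limit of detection can be given for genes listed at 0.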
